A study of Mus musculus with 6 samples.

Results

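The 7 genes described here encode receptors through which neutrophils and other phagocytes sense chemoattractants: Fpr1, Fpr2, C5ar1, C3ar1, Ltb4r1, Ltb4r2 and Ptafr. They were taken by symbol from gene tables of 31626 rows, and each symbol matched 1 row with no failed estimate. RNA had been measured in 3 Dot1l-deleted and 3 control libraries of transformed mouse CMPs. CMPs, or common myeloid progenitors, are bone marrow precursors of granulocytes, monocytes, red cells and megakaryocytes. In the Dot1l-deleted group (Dot1l -/-) floxed cells had received Cre recombinase, and in the control group (Dot1l flox/flox) they had been transduced with a control. All cells came from C57Bl/6 mice, were transformed with MSCV-MN1-IRES-GFP, a retrovirus that carries the leukaemia oncogene MN1, and were grown in M3234 methylcellulose with FBS, IL3, IL6 and SCF and were sorted on day 7 after transduction. MN1 is thus present in both groups, and no library had Cre with intact Dot1l. DOT1L methylates lysine 79 of histone H3, and the study compared mRNA levels with and without it. Nothing in the labels ties a replicate to its own culture or animal, so the spread given here may be technical.

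The receptors are seven-transmembrane proteins that signal mainly through inhibitory G proteins and steer phagocytes towards bacteria and damaged tissue. FPR1 and FPR2 bind formylated peptides of bacterial and mitochondrial origin, C5AR1 and C3AR1 bind the complement fragments C5a and C3a, LTB4R1 and LTB4R2 are the high-affinity and low-affinity receptors of the lipid leukotriene B4, and PTAFR binds platelet-activating factor. In the mouse genome Fpr1 lies next to Fpr2, C5ar1 next to C5ar2, the gene of a second C5a receptor, and Ltb4r1 next to Ltb4r2.

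RefSeq promoter windows, from 250 bases before to 50 bases after the annotated start, were held for 6 of the 7 genes on build GRCm38.p6. Those of the 3 receptors whose RNA differed between the groups are shown, read 5′ to 3′ on the strand of the gene. The windows are chr7:16259289-16259588, minus strand, for C5ar1, chr14:55765712-55766011, plus strand, for Ltb4r1, and chr6:122856108-122856407, minus strand, for C3ar1. The deposited values rest on build mm9, so these positions are for the sequences only. Capitals mark matches on either strand to 6 motifs: GAGGAA, the core of PU.1 sites, TTGCNNAA, a C/EBP site, TGTGGT, a RUNX site, GATAAG, bound by GATA factors, TGANTCA, an AP-1 site, and TATAAA, the TATA box.
C5ar1: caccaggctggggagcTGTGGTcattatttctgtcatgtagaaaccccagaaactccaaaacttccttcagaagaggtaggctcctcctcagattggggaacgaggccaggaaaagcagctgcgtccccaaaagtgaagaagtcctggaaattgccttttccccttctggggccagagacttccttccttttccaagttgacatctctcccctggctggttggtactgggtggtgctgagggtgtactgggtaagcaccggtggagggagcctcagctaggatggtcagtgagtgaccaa
Ltb4r1: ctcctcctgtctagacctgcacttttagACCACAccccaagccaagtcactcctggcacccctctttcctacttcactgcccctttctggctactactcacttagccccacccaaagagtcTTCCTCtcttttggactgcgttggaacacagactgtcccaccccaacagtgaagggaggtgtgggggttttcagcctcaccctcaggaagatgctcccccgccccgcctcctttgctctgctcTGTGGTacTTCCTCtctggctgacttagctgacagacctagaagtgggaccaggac
C3ar1: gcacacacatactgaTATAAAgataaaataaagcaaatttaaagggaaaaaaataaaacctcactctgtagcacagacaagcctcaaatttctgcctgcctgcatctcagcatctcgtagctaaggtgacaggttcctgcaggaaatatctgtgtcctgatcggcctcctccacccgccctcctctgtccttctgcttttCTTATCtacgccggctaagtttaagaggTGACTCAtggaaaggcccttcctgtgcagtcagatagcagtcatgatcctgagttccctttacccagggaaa
The Ltb4r1 window held 2 matches to GAGGAA and 2 to TGTGGT. The C5ar1 window held 1 match to TGTGGT and none to the others. The C3ar1 window held 1 match to GATAAG, 1 to TGANTCA and 1 to TATAAA. No printed window had overlapping matches. Of 32851 promoter windows of the same length, 28.3% held GAGGAA, 16.8% TGTGGT, 13.6% TATAAA, 10.8% TTGCNNAA, 7.81% TGANTCA and 7.44% GATAAG. A match is a run of letters and not a measured binding site.

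Values are FPKM, fragments scaled to gene length and to the number of mapped fragments, so levels can be compared between genes. Genes with a mean of at least 1 FPKM over the 6 libraries, 11924 in all, were tested with limma on log2(FPKM + 1), and a gene was called at a Benjamini-Hochberg adjusted p under 0.05 over all of them. A log2 fold change is Dot1l-deleted minus control on that scale, where the pseudocount of 1 shrinks the change of low genes, and a plain fold is a ratio of mean FPKM. Dot1l itself was at 8.24, 8.17 and 5.80 FPKM in the Dot1l-deleted libraries, against 20.2, 22.6 and 19.6 FPKM in the controls (-1.39 on the log2 scale, SE 0.157, adjusted p = 0.000124). Between 17310 and 18034 genes were above 0 per library. The third Dot1l-deleted library stood apart: the 10 highest rows held 39.0% of its summed FPKM, against 6.59% to 10.8% in the other 5, and the typical tested gene there was 0.366 below its mean over the 6 libraries on the log2 scale (median -0.366), against 0.0499 to 0.103 above it elsewhere. The ribosomal RNA row SSU_rRNA_5 was at 81820 FPKM in that library, against 485 to 1659 FPKM in the other 5. Its part in the lower values of that library was not tested. As deposited, log2 fold changes had a median of -0.164 over the tested genes, and median-of-ratios scaling, which divides each library by its median ratio to the mean library, brought this to 0.0011. Results are given as deposited, and scaled counts of calls are given for the gene lists in which they differ.

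Ltb4r1 and C5ar1 rose after Dot1l deletion, C3ar1 fell, and the other 4 genes either did not pass the test (Ptafr) or were too low for it. Of the 7 genes, 4 passed the filter on low values (C5ar1, C3ar1, Ltb4r1 and Ptafr), and Fpr1, Fpr2 and Ltb4r2 did not. C5ar1 and Ltb4r1 were called higher and C3ar1 lower in the Dot1l-deleted libraries. Over all tested genes 19.7% were called, 7.43% higher and 12.2% lower, or 886 and 1459 genes. After median-of-ratios scaling 45.3% were called, 23.0% (2740 genes) as higher and 22.3% (2661 genes) as lower, and the same 3 receptors were called in the same directions. In each of the 3 the groups did not overlap, which held for 44.9% of all tested genes, 10.7% with all Dot1l-deleted libraries higher and 34.1% with all of them lower. Without the third Dot1l-deleted library the ratio of means, Dot1l-deleted over control, was 8.34 for C5ar1, 2.89 for Ltb4r1 and 0.569 for C3ar1. These are bulk RNA values, in which RNA per cell and the number of cells of a type cannot be told apart.

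**Figure D1:**
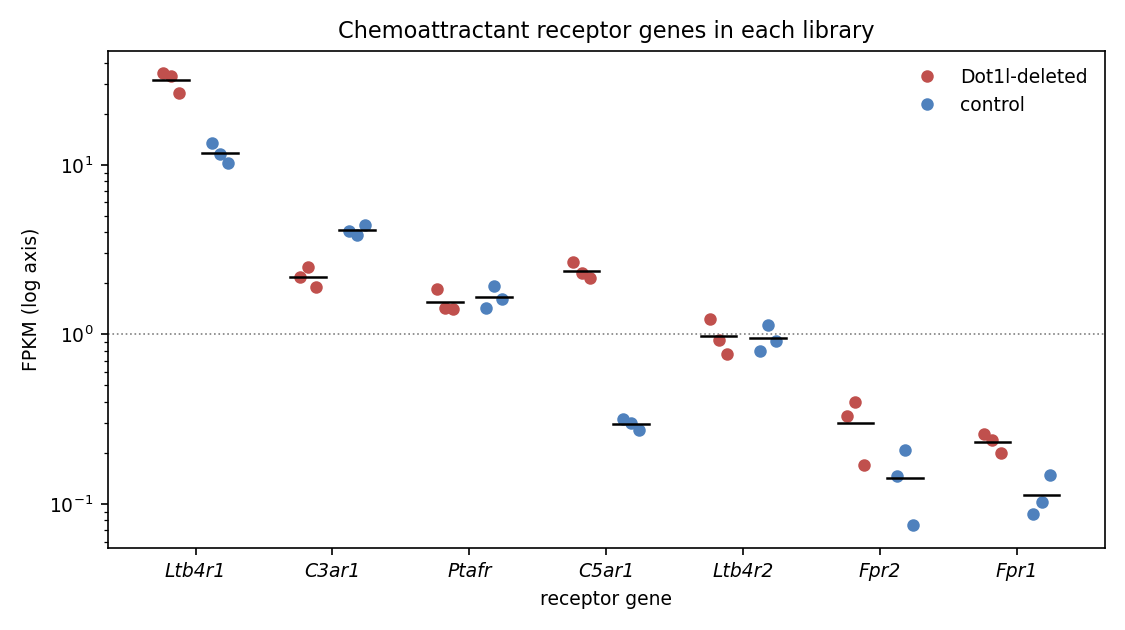
FPKM of the 7 receptor genes on a log axis, ordered by mean, in Dot1l-deleted (red) and control (blue) libraries; points are libraries, bars are means of 3, and the dotted line marks 1 FPKM. After deletion C5ar1 (2.15 to 2.66 FPKM, against 0.273 to 0.315 FPKM in controls) and Ltb4r1 (26.6 to 34.6 FPKM, against 10.3 to 13.5 FPKM in controls) lie higher, and C3ar1 (1.89 to 2.48 FPKM, against 3.87 to 4.40 FPKM in controls) lies lower.

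Ltb4r1 (ENSMUSG00000046908), the high-affinity receptor of leukotriene B4, was at 34.6, 33.5 and 26.6 FPKM in the Dot1l-deleted libraries, against 13.5, 11.5 and 10.3 FPKM in the controls. Every Dot1l-deleted library was above every control. The mean was 31.6 ± 4.33 FPKM after deletion and 11.8 ± 1.58 FPKM in controls (SD, n = 3 each), a 2.68-fold rise. On the log2 scale it rose by 1.35 (SE 0.160, adjusted p = 0.000168). The lowest Dot1l-deleted value came from the library that stood apart. With median-of-ratios scaling the Dot1l-deleted libraries came to 33.0, 32.2 and 35.2, against 12.4, 10.8 and 9.82 in the controls, a 3.03-fold rise.

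Ltb4r2 (ENSMUSG00000040432), the low-affinity receptor of leukotriene B4 and the neighbour of Ltb4r1 on the same strand, had 1.24, 0.922 and 0.770 FPKM after deletion, against 0.801, 1.13 and 0.913 FPKM in controls. The groups overlapped fully. Its mean over the 6 libraries, 0.963 FPKM, fell just short of the filter. Without the filter its log2 fold change was 0.02 (95% interval -0.28 to 0.32, adjusted p = 0.951). The ratio of Ltb4r1 to Ltb4r2 within a library does not depend on scaling. It was 27.9, 36.3 and 34.6 in the Dot1l-deleted libraries, against 16.8, 10.2 and 11.3 in the controls, and the groups did not overlap. The two-sided exact permutation p was 0.1, and no smaller one can be had from 3 libraries a group. The exons of neither gene overlap another gene in GENCODE M21.

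C5ar1 (ENSMUSG00000049130), the receptor of C5a, was at 2.66, 2.29 and 2.15 FPKM in the Dot1l-deleted libraries, against 0.315, 0.302 and 0.273 FPKM in the controls. The groups did not overlap. The control values were low, at most 0.315 FPKM, so the folds and ratios given for C5ar1 rest on low control values. The mean was 2.37 ± 0.267 FPKM after deletion and 0.297 ± 0.0215 FPKM in controls (SD, n = 3 each), a 7.97-fold rise, and it rose by 1.37 on the log2 scale (SE 0.185, adjusted p = 0.000428). C5ar1 reached the filter through its Dot1l-deleted libraries, so a gene of its level had to differ to be tested. Without the filter, over 20568 genes of which 13.2% were called, 6.52% higher and 6.68% lower, its adjusted p was 0.000743. With a pseudocount of 0.1 in place of 1 its log2 fold change was 2.63, and with 5 it was 0.48; the call held under both.

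The neighbouring gene of the second C5a receptor, C5ar2 (listed under its older symbol Gpr77), had 1.10, 1.18 and 0.973 FPKM after deletion, against 0.453, 0.474 and 0.538 FPKM in controls. The groups did not overlap, and the mean was 2.22-fold higher after deletion, but the gene was below the filter and had no adjusted p. Among untested genes above 0 in any library, 14.3% had every Dot1l-deleted library above every control and 8.03% had every one below. The ratio of C5ar1 to C5ar2 was 1.93 to 2.42 in Dot1l-deleted libraries and 0.507 to 0.695 in controls (exact two-sided permutation p = 0.1, the smallest possible), so the order of the C5a receptors differed between the groups.

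C3ar1 (ENSMUSG00000040552), the receptor of C3a, moved the other way. It was at 2.19, 2.48 and 1.89 FPKM in the Dot1l-deleted libraries, against 4.06, 3.87 and 4.40 FPKM in the controls. Every Dot1l-deleted library was below every control. The mean was 2.19 ± 0.298 FPKM after deletion and 4.11 ± 0.271 FPKM in controls (SD, n = 3 each), a 1.88-fold fall. Its change on the log2 scale was -0.68 (SE 0.152, adjusted p = 0.00949). The call was lost without the third control library (log2 fold change -0.64, adjusted p = 0.0593). With median-of-ratios scaling the fall was 1.66-fold (log2 fold change -0.55, adjusted p = 0.00274).

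The balance of the complement receptors differed between the groups. The ratio of C5ar1 to C3ar1 was 1.21, 0.920 and 1.14 in the Dot1l-deleted libraries, against 0.0775, 0.0781 and 0.0620 in the controls. In controls C3ar1 was far above C5ar1 in every library, while after deletion both were at about the same level. With C5ar1 higher and C3ar1 lower in every Dot1l-deleted library, this ratio had to separate the groups. Its exact two-sided permutation p of 0.1, the smallest possible, therefore adds nothing to the differences of the genes themselves. Among the 11924 tested genes, 3.2% had a larger log2 rise than C5ar1 and 3.3% a larger one than Ltb4r1. A larger fall than that of C3ar1 was seen in 1045 genes. The pseudocount of 1 on this scale shrinks the change of C5ar1 more than that of Ltb4r1. By mean FPKM C5ar1 rose 7.97-fold and Ltb4r1 2.68-fold. C5ar1 is ranked in a set that it entered through its Dot1l-deleted libraries.

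**Figure D2:**
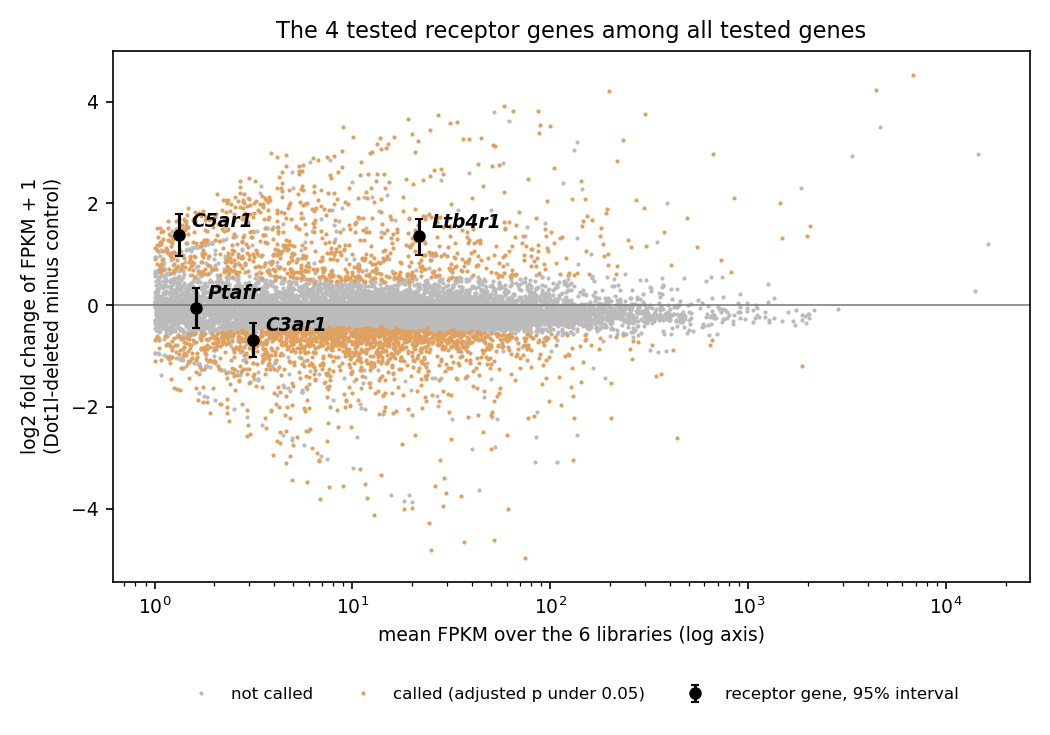
Log2 fold change of FPKM + 1, Dot1l-deleted minus control, against the mean FPKM of the 6 libraries on a log axis, for the 11924 tested genes; orange points were called at an adjusted p under 0.05, grey ones were not. The 4 tested receptors are in black with 95% intervals: C5ar1 (1.37) and Ltb4r1 (1.35) lie above zero, C3ar1 (-0.68) below, and the interval of Ptafr (-0.45 to 0.34) crosses zero.

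Ptafr (ENSMUSG00000056529), the receptor of platelet-activating factor, had 1.84, 1.43 and 1.41 FPKM after deletion, against 1.43, 1.92 and 1.62 FPKM in controls. The groups overlapped. The mean was 1.56 ± 0.243 FPKM after deletion and 1.66 ± 0.243 FPKM in controls (SD, n = 3 each), and the log2 fold change of -0.05 (95% interval -0.45 to 0.34, adjusted p = 0.859) did not pass. The sign was positive with median-of-ratios scaling (log2 fold change 0.06). The interval leaves room for a change in either direction, on a scale where the pseudocount of 1 shrinks the change of a gene this low. Of the 50-base words in its transcripts, 1.64% also occur in other genes, against none for C5ar1, C3ar1 and Ltb4r1.

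The formyl peptide receptors were close to the limit of detection. Fpr1 (ENSMUSG00000045551) had 0.260, 0.237 and 0.200 FPKM after deletion, against 0.0875, 0.103 and 0.148 FPKM in controls, with no overlap. Multiplied by the relative depth of each library, these values were whole multiples of a common step, within 0.0039 of a step: 8, 6 and 6 steps in the Dot1l-deleted libraries, against 3, 3 and 4 in the controls. If a step is 1 fragment, the 2.06-fold higher mean rests on 20 fragments after deletion and 10 in controls. Without the filter the log2 fold change was 0.15 (adjusted p = 0.0404). Fpr2 (ENSMUSG00000052270) had 0.328, 0.399 and 0.169 FPKM after deletion, against 0.147, 0.207 and 0.0749 FPKM in controls, or 10, 10 and 5 steps against 5, 6 and 2. Its groups overlapped, and without the filter it did not pass (log2 fold change 0.18, adjusted p = 0.216). Of the 50-base words of Fpr2, 31.5% also occur in Gm5966, Fpr3 or Fpr1, and its exons overlap those of Fpr3, so the split of reads in this family is uncertain. Fpr3, Fpr-rs3, Fpr-rs4, Fpr-rs6 and Fpr-rs7, the other genes of the family that were looked up, were listed at 0 in all 6 libraries.

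Ranked by level, Ltb4r1 came first in both groups. In the Dot1l-deleted libraries it was followed by C5ar1 (2.37 FPKM), C3ar1 (2.19), Ptafr (1.56), Ltb4r2 (0.978), Fpr2 (0.299) and Fpr1 (0.232). The ranges of C5ar1 and C3ar1 overlapped there, as did those of Fpr2 and Fpr1. In the controls the order after Ltb4r1 was C3ar1 (4.11 FPKM), Ptafr (1.66), Ltb4r2 (0.949), C5ar1 (0.297), Fpr2 (0.143) and Fpr1 (0.113), where only Fpr2 and Fpr1 overlapped among neighbours. The summed FPKM of the 7 genes was 33.2 to 43.2 after deletion and 17.8 to 20.3 in controls. Ltb4r1 made up 80.2% to 81.2% of it in the Dot1l-deleted libraries, against 58.2% to 66.3% in the controls. The share of C3ar1 was 5.08% to 6.02% after deletion and 20% to 24.8% in controls, and that of C5ar1 was 5.55% to 6.46% after deletion and 1.54% to 1.59% in controls. A share also falls when the sum rises, and the mean FPKM of C3ar1 itself fell only 1.88-fold. The share of Ptafr, which was not called, was likewise lower, at 3.47% to 4.27% after deletion and 7.06% to 10.1% in controls.

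**Figure D3:**
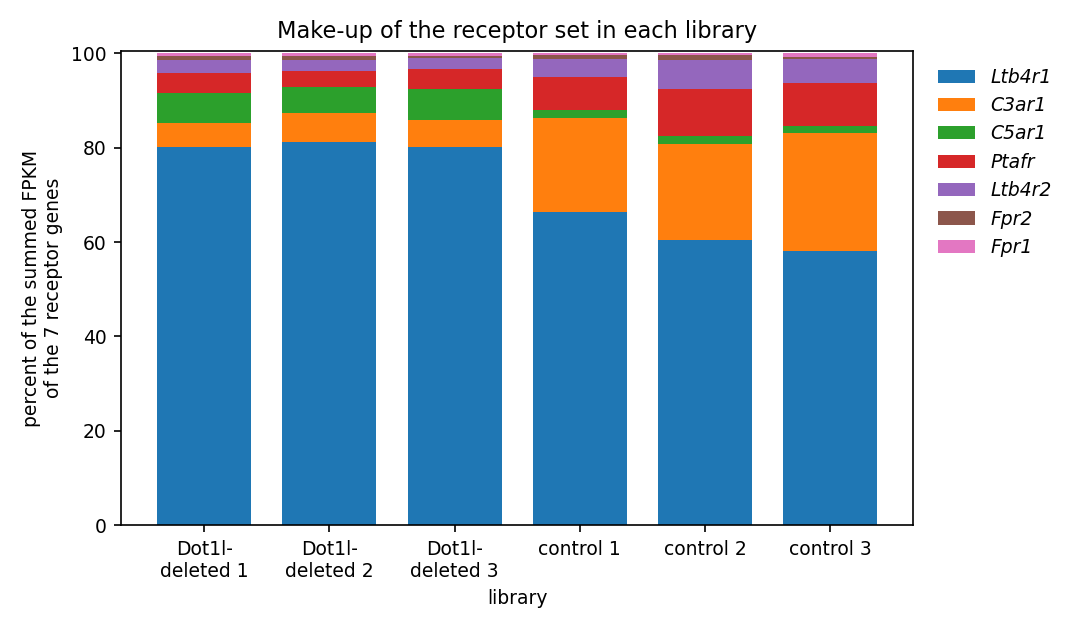
Share of each receptor gene in the summed FPKM of the 7 genes, in percent, for the 3 Dot1l-deleted and the 3 control libraries; each bar is 1 library. Ltb4r1 takes 80.2% to 81.2% of the sum after deletion and 58.2% to 66.3% in controls, and C3ar1 takes 5.08% to 6.02% after deletion and 20% to 24.8% in controls. A share also falls when the sum rises, and the sum was 33.2 to 43.2 FPKM after deletion and 17.8 to 20.3 FPKM in controls.

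Genes that make or carry the ligands changed in both directions. Of 11 tested genes of ligand precursors and synthesis, 6 rose, 2 fell and 3 did not pass, with a median log2 fold change of 0.64, against -0.164 over all tested genes. C3, the precursor of C3a, was at 80.6 to 103 FPKM in the Dot1l-deleted libraries, against 9.39, 11.2 and 9.45 FPKM in the controls. It rose by 3.12 on the log2 scale (SE 0.160, adjusted p = 6.93e-07), so the RNA of the precursor was higher in the same libraries in which that of the receptor C3ar1 was lower. Camp, whose peptide product can act on FPR2, rose 17.6-fold, and Anxa1, whose product binds the same receptor family, rose 3.59-fold to 300 ± 55.6 FPKM after deletion, against 83.5 ± 6.81 FPKM in controls (SD, n = 3 each). Hc, the gene of complement C5, was below the filter, at 0.0622 to 0.0781 FPKM after deletion and 0.00620 to 0.0158 FPKM in controls.

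The enzymes of leukotriene B4 synthesis did not move as one. Alox5, the 5-lipoxygenase gene, fell to 90.5, 91.5 and 68.6 FPKM after deletion, against 176, 160 and 156 FPKM in controls (-0.98 on the log2 scale, SE 0.175, adjusted p = 0.00270). Pla2g4a, which releases arachidonate, also fell (log2 fold change -0.58, adjusted p = 0.0305). Lta4h, the enzyme of the last step, rose 1.58-fold (adjusted p = 0.0292), and Alox5ap, the partner of 5-lipoxygenase, was 1.45-fold higher without passing (adjusted p = 0.0641). The calls of Pla2g4a and Lta4h were lost on leaving out any 1 control library or the first Dot1l-deleted library, and that of Lta4h also on leaving out the second. Lpcat2, an enzyme of platelet-activating factor synthesis, rose 2.78-fold. Saa3, whose product can act on FPR2, rose 3.41-fold, a call lost with no filter (adjusted p = 0.0534). Ctsg and Lpcat1 were the others that did not pass. After median-of-ratios scaling 8 genes of this list rose and 3 fell: Alox5ap and Ctsg also rose, with log2 fold changes of 0.71 and 0.73, and Lpcat1 also fell (-0.17, adjusted p = 0.0181).

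Of 5 tested genes of ligand breakdown, Cyp4f18 and Ptgr1, both enzymes that inactivate leukotriene B4, rose 4.03-fold and 2.04-fold, and Pafah2, which degrades platelet-activating factor, fell with a log2 fold change of -0.73 (adjusted p = 0.00783), a call lost without the second control library. Pafah1b2 and Pafah1b3 did not pass, and the median of the list was 0.01. After median-of-ratios scaling both passed, in opposite directions (Pafah1b2 -0.23, adjusted p = 0.00223, and Pafah1b3 0.19, adjusted p = 0.0129), so that 3 genes of the list rose and 2 fell. Below the filter, Pla2g7, the secreted platelet-activating factor hydrolase, had 0.641, 1.07 and 0.896 FPKM after deletion, against 0.0576, 0.0518 and 0.0366 FPKM in controls. Cpn1, the catalytic chain of the carboxypeptidase that trims C3a and C5a, was at 0.992 to 1.56 FPKM after deletion and 0.0524 to 0.227 FPKM in controls.

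Other chemoattractant receptors also split. Of 7 tested, 3 rose, 1 fell and 3 did not pass, with a median log2 fold change of 0.38. Gpr84, a receptor of medium-chain fatty acids, rose 4.64-fold, the chemokine receptor gene Ccr1 3.13-fold and Cxcr2 (listed as Il8rb), which binds neutrophil chemokines, 3.84-fold, while the monocyte chemokine receptor gene Ccr2 fell with a log2 fold change of -0.84 (adjusted p = 0.00427). Cxcr4, Ccrl2 and Ptgdr2 (listed as Gpr44) did not pass. After median-of-ratios scaling Cxcr4 was called lower (-0.32, adjusted p = 0.00341) and Ccrl2 higher (0.51, adjusted p = 0.00923), giving 4 genes higher and 2 lower. Of 6 tested complement receptors and regulators outside the 7, Itgam and Itgb2, the chains of complement receptor 3, rose 6.39-fold and 2.88-fold, and Cd55, Cd93 and Cd59a fell with log2 fold changes of -1.21, -0.97 and -0.62. Itgam had 26.4, 28.4 and 24.3 FPKM after deletion, against 3.94, 4.31 and 4.13 FPKM in controls. The call of Cd59a was lost without each control library in turn. Cr1l did not pass as deposited and was called lower after median-of-ratios scaling (-0.31, adjusted p = 0.00324), which gave 2 genes higher and 4 lower.

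Calls among the signalling partners of the receptors depended on the scaling. Of 25 tested G protein subunit and effector genes, 3 rose, 3 fell and 19 did not pass, a share of calls near the 19.7% of all tested genes, with a median log2 fold change of -0.10. Gng11, a gamma subunit gene, rose 2.46-fold and Arhgef6, a Rac exchange factor gene, 2.07-fold, while the phospholipase genes Plcb1, Plcb3 and Plcb4 fell with log2 fold changes of -0.60, -0.53 and -0.54, and Prex1 rose by 0.47. The calls of Plcb1, Plcb3, Plcb4 and Prex1 were lost without each control library in turn. That of Plcb3 was also lost without the second Dot1l-deleted library. Those of Plcb4 and Prex1 were also lost with no filter, without the first Dot1l-deleted library and without the second. Gnai2, the main inhibitory alpha subunit of leukocytes, was at 295 ± 50.4 FPKM after deletion and 271 ± 12.5 FPKM in controls (SD, n = 3 each, adjusted p = 0.702). After median-of-ratios scaling, where 45.3% of all tested genes were called, 11 genes of this list rose and 3 fell, and Gnai2 was among those that rose (log2 fold change 0.29, adjusted p = 0.00651).

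Of 11 tested genes of receptor desensitisation and G protein shut-off, 1 rose, 2 fell and 8 did not pass, with a median of -0.04. Rgs10, which speeds the shut-off of inhibitory G proteins, fell to 11.3, 12.0 and 9.72 FPKM after deletion, against 44.1, 44.0 and 42.1 FPKM in controls (-1.89 on the log2 scale, SE 0.140, adjusted p = 6.61e-06). Rgs2 rose 3.07-fold to 43.4 FPKM, and Grk5, a receptor kinase gene, fell with a log2 fold change of -0.61, a call lost without each control library in turn, without the first Dot1l-deleted library and with no filter. With median-of-ratios scaling 5 genes of this list rose and 2 fell. Over all tested genes 19.7% were called as deposited and 45.3% with that scaling.

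**Figure D4:**
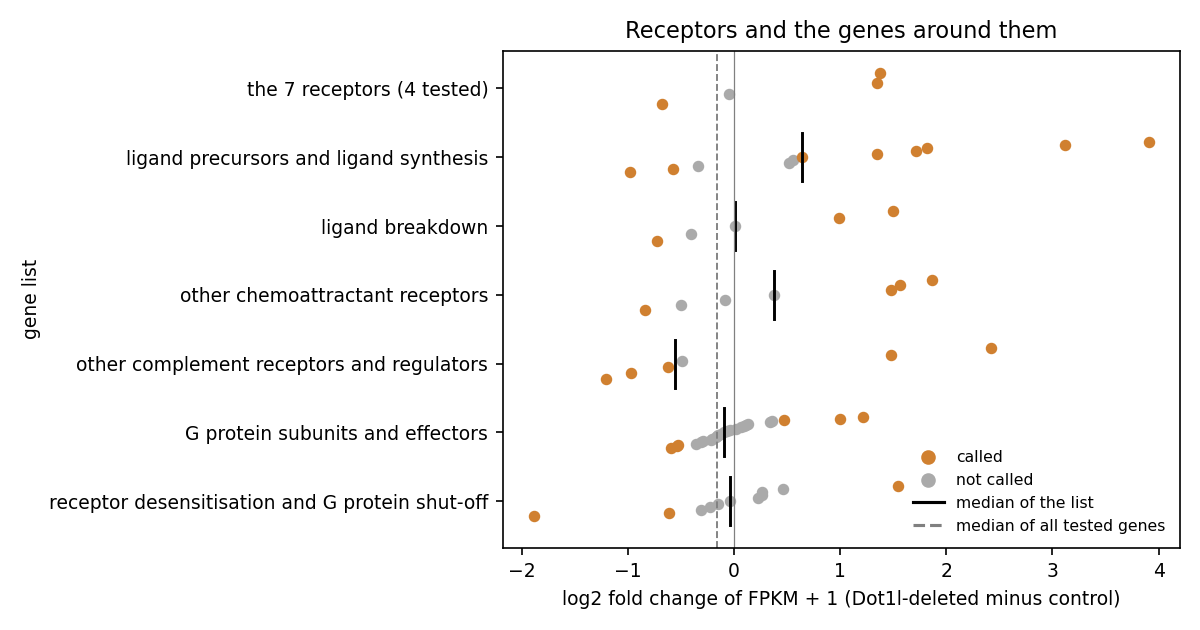
Log2 fold change of FPKM + 1, Dot1l-deleted minus control, of the tested receptors and of the tested genes of 6 related lists; each point is a gene, orange where called, the black bar is the median of a list and the dashed line that of all tested genes (-0.164). The points of the G protein list gather near zero, and those of the ligand list reach from -0.98 (Alox5) to 3.91 (Camp).

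Over these 6 lists, 29 of 65 tested genes were called, 17 higher and 12 lower, against 19.7% of all tested genes. After median-of-ratios scaling 49 of the 65 were called, 33 higher and 16 lower, against 45.3% of all tested genes. The counts are of genes and give no test of a list. The lists were chosen with earlier results of these data known, and Cd59a reached the filter only through the controls. The shares therefore cannot be read as an excess of calls in these lists.

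Markers of mature and of immature myeloid cells also differed between the groups. Over all tested genes 7.43% were called higher and 12.2% lower as deposited. After median-of-ratios scaling these shares were 23.0% and 22.3%. Of 14 tested neutrophil markers all 14 rose, with summed FPKM of the 16 genes of the list of 24300 to 30000 after deletion and 1990 to 2270 in controls. Among the defining late markers, Ly6g was at 0.813 to 2.11 FPKM after deletion and listed at 0 in the controls, and Mmp9 was at 0 in 5 libraries. Of 11 tested monocyte and macrophage markers 8 rose and 1 fell, with a sum of 1170 to 1600 FPKM over 18 genes, against 388 to 428 FPKM in controls. C1qa was listed at 0 in all libraries. Of 8 tested mast cell and basophil markers 1 rose and 5 fell, and their sum over 10 genes was 1590 to 2300 FPKM after deletion and 2540 to 2790 FPKM in controls. Both tested eosinophil markers rose, the sum of 6 genes being 17.1 to 19.1 FPKM, against 2.87 to 3.94 FPKM in controls. Of 8 progenitor markers 1 rose and 5 fell, and their sum was 549 to 745 FPKM after deletion and 1480 to 1510 FPKM in controls. Kit, the progenitor receptor of SCF, was at 57.6 ± 11.9 FPKM after deletion and 117 ± 6.81 FPKM in controls (SD, n = 3 each). Cd34 was at 123 ± 21.1 FPKM after deletion and 750 ± 14.0 FPKM in controls. Both markers of the labelled cell type were lower after deletion but detected in both groups. Flt3 and Meis1 were at 4.01 and 8.11 FPKM after deletion, against 66.5 and 55.1 FPKM in controls. Spi1 (listed as Sfpi1) was the marker of this list that rose, 2.29-fold. Of 12 B, T and NK cell markers, Ms4a1, Cd3g and Ncr1 were among those listed at 0 in all libraries, and the sum was 123 to 177 FPKM after deletion and 118 to 136 FPKM in controls. Of the 4 tested in that list 2 rose (Cd79b, Nkg7) and 2 fell (Thy1, Cd28). Of 8 tested erythroid and megakaryocyte markers 3 rose and 3 fell, with a sum of 96.2 to 123 FPKM over 10 genes after deletion and 151 to 163 FPKM in controls. Camp and Cxcr2 stand in the neutrophil list as well, and Ccr2 in the monocyte list. After median-of-ratios scaling 10 monocyte markers rose and 1 fell, 1 progenitor marker rose and 6 fell, 2 mast cell and basophil markers rose and 5 fell, and the counts of the other marker lists were as given. Some marker genes reached the filter only through the group where they were high, so a gene of their level had to differ to be tested: among them, Prss34 and Cd28 averaged under 1 FPKM after deletion, and Ltf, Retnlg, Csf1r, Fcgr1, Prg2 and Hba-a1 in controls. The same holds for Cd59a of the complement list, at 0.956 FPKM after deletion and 2.01 FPKM in controls. The part of any of these cell types in the receptor values was not tested.

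By profile, defined as log2(FPKM + 1) minus the mean of the controls over the 6 libraries, the genes nearest to C5ar1 were Hal, Arsb and Evl, with root mean square differences of 0.0554, 0.0766 and 0.0788. Hal, which encodes histidine ammonia-lyase, was at 2.35 ± 0.223 FPKM after deletion and 0.296 ± 0.0486 FPKM in controls (SD, n = 3 each). Nearest to Ltb4r1 were Lcp2, the gene of the adaptor SLP-76, at a difference of 0.0387, then Evl, a regulator of actin, at 0.0595, and Lbp, a lipopolysaccharide-binding protein gene, at 0.0600. Evl stood on both lists, on a scale where the pseudocount of 1 shrinks the change of low genes. With a pseudocount of 0.1 the log2 fold change was 2.63 for C5ar1 and 1.41 for Ltb4r1. Hal and Evl averaged 0.296 and 0.36 FPKM in controls and reached the filter through their Dot1l-deleted libraries. Nearest to C3ar1 were Cast, the calpastatin gene, at 0.0369, Polr3gl at 0.0473 and Mpp5 at 0.0527. Nearest to Ptafr were Atad2b, Tmem2 and Mcoln2, at 0.0307 to 0.0430. With 6 libraries in 2 groups these distances mainly reflect the size of the difference between groups and the scatter within them.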

How the data were processed

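Polyadenylated RNA was sequenced with an Illumina stranded kit, per the labels' protocols. What the authors deposited is an FPKM value for each Ensembl gene in each library. The tools and build named, with no role or order, are Cuffdiff, SAMtools, GSNAP, CASAVA 1.8.2 and mm9, per the submitters' processing notes. Whether strand was used in counting was not given in the sources used here. A value of 999999999 was read as a failed estimate, and the 378 genes with it in any library were left out. FPKM holds no read totals. Relative depth was estimated from small RNA genes above 0 both in a library and in control library 1. The most common ratio of their values was taken, on the assumption that genes at this ratio had the same number of reads in both libraries. This put the other 5 libraries at 0.739 to 0.898 of the depth of control library 1. In each, 26 to 37 of 162 to 183 such genes lay at that ratio.

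Groups were taken from the labels. The test was limma's, version 3.58.1 under R 4.3.3 (lmFit, eBayes with a mean-variance trend, two-sided) on log2(FPKM + 1), and the fit was tested on simulated data. The members and gene lists were chosen with earlier results of these data known. Of 178 list entries in 13 lists, 169 were matched to the tables; the others are not analysed here. Named were the 7 receptors, Dot1l, up to 5 genes per pathway list by adjusted p, genes counted in groups of 5 or fewer, and the 3 nearest profiles of each tested receptor, passing over predicted genes and small RNA rows. Further genes were named after their values were seen. Marker genes are given by list. Promoter windows came from RefSeq, and shared 50-base words and overlapping exons from GENCODE M21. The 15 alternatives covered pseudocount, filter, scaling, variance model, a replicate block and each library left out.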

Additional observations from a re-analysis of the deposited data

How the results depend on the processing

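C5ar1, Ltb4r1 and Dot1l kept their direction and their call under all 15 alternatives, with log2 fold changes of 0.48 to 2.63 for C5ar1, 1.12 to 1.52 for Ltb4r1 and -1.49 to -1.06 for Dot1l. C3ar1 kept its direction under all 15 and its call under 14, and it ranged from -0.75 to -0.61 with 1 library left out. The adjusted p without the third control library was 0.0593, with fewer samples in the fit. Ptafr never passed, and its sign was positive with median-of-ratios scaling (0.06), with that scaling and the replicate block (0.06), with that scaling without the third Dot1l-deleted library (0.01) and without the second control library (0.02); with 1 library left out it ran from -0.13 to 0.02. The number of receptors called was 2 to 4.

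Counts of genes moved more. Against 2345 genes called, median-of-ratios scaling gave 5401, quantile normalization 5608, that scaling with the replicate block 4461 and that scaling without the third Dot1l-deleted library 4567. With 1 library left out the count ran from 1428, without the second control, to 4573, without the third Dot1l-deleted library; it was 1501 without the first control and 1488 without the third. For the 6 pathway lists, with 29 genes called, the counts under the same 4 settings were 49, 49, 47 and 45, and 20 to 44 with 1 library left out; the highest was without the third Dot1l-deleted library. The cause was not tested.

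No pairing by replicate number was seen: deviations of same-numbered libraries from their group means correlated at -0.0301, -0.0377 and 0.0128 over 11924 genes. With so few libraries these values cannot exclude a shared culture or animal. The replicate block gave 2953 genes called and the same 3 receptors. The values of Fpr1 and Fpr2 were 2 to 10 steps of a common size per library; the files do not say what a step is in fragments.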
